A study of Rattus norvegicus with 2 samples.

Results

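The genes described here encode carriers and pumps that move inorganic ions and metals across membranes in rat C6 glioma cells. The rule that picks them reads gene symbols only: families Slc4a, Slc8a, Slc9a, Slc12a, Slc20a, Slc24a, Slc30a, Slc34a, Slc39a and Slc41a, and the pump families Atp1a, Atp1b, Atp2a and Atp2b, each followed by a number. Of 18166 genes with a probe set of their own on the array, 71 belonged to these families, each with 1 probe set. RefSeq lists 83 protein-coding genes of the same names, and 12 of these were not analysed here.

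The series holds 1 array of undifferentiated C6 cells, an established glioma line kept in medium with 10% serum, and 1 array of C6 cells exposed to small molecules, called SMiG. The sample's own labels name forskolin, which activates adenylyl cyclase, rapamycin, which inhibits mTORC1, and I-BET151, which inhibits BET bromodomain proteins, while the treatment protocol, given identically for each sample, has 35 days of CHIR99021 (20 µM), a GSK3 inhibitor, and forskolin (100 µM). Values are log2 signals as deposited, and differences are SMiG minus C6 throughout. With 1 array per group no difference has a replicate check, no test across samples was possible, and the number of arrays limits the precision. In bulk RNA, fewer cells of a kind and less RNA per cell cannot be told apart.

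Ion carriers set the cell's pH, volume, membrane potential and stores of calcium and metals. The sodium and potassium pump builds the sodium gradient that many of the other carriers spend, importing bicarbonate or phosphate or driving out protons and calcium. For zinc the families oppose each other, SLC39 (ZIP) proteins bringing it into the cytosol and SLC30 (ZnT) proteins taking it out, into vesicles or out of the cell. In glioma, acid extruders and chloride cotransporters are studied for their part in pH control, cell volume and migration.

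A gene was called detected where at least 1 array read above a floor, the 95th percentile of 1343 olfactory and vomeronasal receptor genes taken as silent, 4.84 on the C6 array and 4.96 on the SMiG array. Of the 71 carrier and pump genes, 38 were detected, 32 of them above the floor on both arrays, 3 on C6 alone and 3 on SMiG alone. The silent genes give a sense of technical spread: the SD of their differences was 0.32, and 2-fold was passed by 0.819%. The C6 identity of the cells was checked on 6 glial and glioma markers, which were all detected, 3 of them at least 2-fold higher in SMiG. These were Cnp at 9.05 in C6 and 10.57 in SMiG, S100b at 9.67 and 10.87, and Sox10 at 9.30 and 10.32. Vim read 12.74 on both arrays, Nes 8.74 and 8.59, and Gfap 6.04 and 5.48. Of 16 markers of leukocytes, endothelium, neurons and fibroblasts, 14 had a probe set and 6 were detected. The detected ones were Cd68 at 5.37 and 4.69, Tek at 5.83 and 4.98, Rbfox3 at 5.12 and 4.94, Snap25 at 5.65 and 6.17, Thy1 at 5.24 and 5.30 and Col1a1 at 8.40 and 7.25, the last 2.23-fold lower. The other 8, among them Ptprc, which defines leukocytes, lay under both floors. The part of other cells, and of the glial marker differences, in the results was not tested.

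The promoters of 3 zinc carriers are shown as examples of genes that differed in opposite directions between the arrays. Slc30a1, whose transcription is known to respond to zinc through the factor MTF1, was higher in SMiG, and Slc30a5 and Slc39a8 were lower. Other zinc carriers that were lower also had windows, which are not printed. Each window runs from 250 bases before to 50 after a RefSeq start and is printed in the gene's direction. Capitals mark matches, on either strand, to the metal response element core (TGCACNC or TGCGCNC), the hypoxia response element core (ACGTG), the half-site of the cAMP response element (TGACG) and the core of the ATF4 composite element (TGATGNAA). TGACG and ACGTG overlap in the run TGACGTG.
Slc30a1 promoter, GRCr8 chr13:106021769-106022068, plus strand: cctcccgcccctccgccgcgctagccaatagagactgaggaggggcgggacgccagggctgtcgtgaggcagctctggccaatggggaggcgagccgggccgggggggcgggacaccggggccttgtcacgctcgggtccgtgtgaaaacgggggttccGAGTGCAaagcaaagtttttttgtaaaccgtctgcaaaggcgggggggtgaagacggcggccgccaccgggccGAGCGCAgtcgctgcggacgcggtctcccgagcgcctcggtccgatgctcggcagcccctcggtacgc
Slc30a5 promoter, GRCr8 chr2:33709849-33710148, minus strand: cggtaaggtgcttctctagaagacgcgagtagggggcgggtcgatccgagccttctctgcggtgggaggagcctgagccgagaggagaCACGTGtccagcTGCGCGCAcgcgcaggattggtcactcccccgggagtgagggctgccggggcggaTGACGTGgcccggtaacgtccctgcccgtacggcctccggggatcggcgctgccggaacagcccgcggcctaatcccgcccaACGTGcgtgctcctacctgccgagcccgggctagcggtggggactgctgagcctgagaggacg
Slc39a8 promoter, GRCr8 chr2:226929941-226930240, plus strand: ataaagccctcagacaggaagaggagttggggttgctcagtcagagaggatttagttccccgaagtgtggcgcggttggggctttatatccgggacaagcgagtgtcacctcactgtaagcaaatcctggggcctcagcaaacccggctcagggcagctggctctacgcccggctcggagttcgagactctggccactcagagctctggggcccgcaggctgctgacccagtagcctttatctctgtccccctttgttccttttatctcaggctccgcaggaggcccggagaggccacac
In Slc30a1 the metal element core was found 2 times, both on the reverse strand, starting at position -91 and position -18 from the start. In Slc30a5 the metal core matched 2 times in 1 overlapping stretch, ACGTG 4 times, 2 of them the strands of 1 palindrome, and TGACG 1 time. The Slc39a8 window held none of the 4 sets of letters, which says only that they are not in this window. The windows of Slc39a6 and Slc30a6, also lower in SMiG and not printed, held none of them either. Those of Slc30a4, Slc39a11 and Slc39a13, lower as well, held some of them. Over all 33469 promoter windows in the table, 24.2% held the metal core, 19.3% ACGTG, 21.2% TGACG and 3.98% the ATF4 core. Over the windows of detected genes the shares were 36.6%, 26.1%, 31.7% and 1.97%. All but the ATF4 core are thus common, and a match to any of them is a description, not a site.

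No carrier or pump gene was 2-fold higher in SMiG, and 5 were at least 2-fold lower. The 5 were Atp2b4, Slc4a7, Slc39a8, Slc20a1 and Slc39a6, each above the floor on both arrays. Over all 10932 detected genes 6.51% passed 2-fold downward and 3.19% upward, against 13.2% and 0 of the 38. The members' median difference was −0.06 against −0.01 over all detected genes, with 20 members negative and 18 positive. Of the 38, 24 lay within 0.5 of no difference (63.2%, against 68.1% of all detected genes). The other detected Slc genes of the array, 135 in number, had 22 (16.3%) past 2-fold downward and 5 (3.70%) upward, their median being −0.12. With the threshold at 1.5-fold, 10 members were lower and 2 higher, where 15.1% and 10.4% of all detected genes passed. At 3-fold, 1 member was lower and 0 higher, where 2.51% and 0.732% of all detected genes passed.

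**Figure D1:**
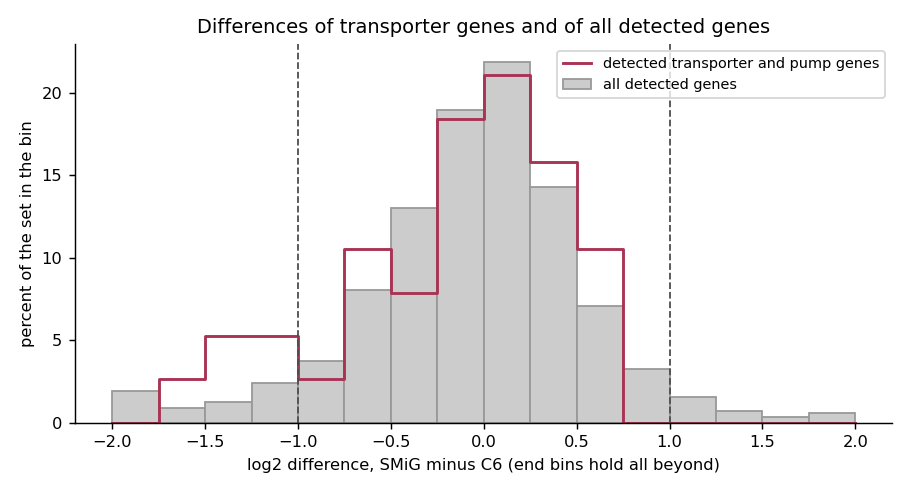
The plot shows the percent of detected genes in each bin of the log2 difference (SMiG minus C6, 0.25 wide, end bins holding all beyond) for all 10932 detected genes (grey bars) and the 38 detected carrier and pump genes (red line). The dashed lines mark 2-fold; 5 carrier genes lie left of the lower one and 0 right of the upper one.

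The SLC4 family, made up largely but not wholly of bicarbonate carriers, was led by Slc4a7. This gene encodes an electroneutral importer of sodium and bicarbonate that raises the pH of the cell. Slc4a7 read 10.91 in C6 and 9.47 in SMiG, a difference of −1.43 or 2.70-fold lower, and 3.10% of all detected genes lay at or below that difference. Slc4a2, encoding a chloride/bicarbonate exchanger that brings bicarbonate out, read 6.94 and 7.01, within the spread of the silent genes. Slc4a11, known from the corneal endothelium, read 5.40 in C6 and 4.78 in SMiG, below the floor there, so that it was at least 1.36-fold lower. The other 7 members, Slc4a1, Slc4a3, Slc4a4, Slc4a5, Slc4a8, Slc4a9 and Slc4a10, lay under both floors, Slc4a4, the electrogenic carrier of astrocytes, at 4.48 and 4.39.

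The sodium/proton exchangers, which extrude acid in exchange for sodium, had 2 of 6 members detected. Slc9a5, best known from brain, read 5.81 in C6 and 5.31 in SMiG, a difference of −0.50. Slc9a8, which resides largely in the Golgi, read 6.87 and 6.93. Slc9a2, Slc9a3, Slc9a4 and Slc9a7 read under both floors. Neither detected exchanger passed 2-fold.

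The cation-chloride cotransporters, which load or unload chloride and water, gave small differences. Slc12a2, encoding the chloride loader NKCC1, read 9.21 in C6 and 9.31 in SMiG. Slc12a4, encoding the potassium-chloride exporter KCC1, read 8.97 and 9.30, a difference of 0.33. Slc12a7, encoding KCC4, read 5.24 and 5.03, both close to the floor. Slc12a1, Slc12a3, Slc12a5 and Slc12a8 lay under both floors, Slc12a5, the neuronal exporter KCC2, at 4.15 and 4.83.

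Of the sodium and potassium pump, 2 beta subunit genes were detected; beta subunits carry the catalytic subunit to the membrane. Atp1b3 read 9.90 in C6 and 9.95 in SMiG, a difference of 0.05. Atp1b2, whose product is also an adhesion molecule of glia, read 4.38 and 4.97, and since the C6 value lay below the floor and the SMiG value barely above it, the bound is only 1.09-fold higher. Atp1b1, at 4.03 and 3.49, Atp1b4 and the testis-type catalytic subunit gene Atp1a4 lay under both floors.

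Among calcium pumps, 1 isoform was lower in SMiG and the 2 others above the floor on both arrays hardly differed. Atp2b4, encoding the plasma membrane pump PMCA4, read 8.93 in C6 and 7.33 in SMiG, a difference of −1.60 or 3.02-fold lower. It was the lowest of all 38 detected members, and 2.46% of all detected genes lay at or below its difference. Atp2b1, encoding the housekeeping isoform PMCA1, read 9.98 and 9.99, and Atp2a2, encoding the pump SERCA2 of the endoplasmic reticulum, read 9.67 and 9.58. The neuronal isoform genes sat near the floor: Atp2b2 read 5.06 and 4.84 and was at least 1.07-fold lower, while Atp2b3 read 4.82 and 5.35 and was at least 1.42-fold higher. Atp2a3 lay under both floors.

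The exchangers that trade sodium for calcium were mostly not detected. Slc24a3, encoding a potassium-dependent exchanger, read 5.78 in C6 and 6.46 in SMiG, a difference of 0.69, the highest of the 38. Slc8a2 read 4.81 and 5.13 and was at least 1.22-fold higher. Slc8a1, Slc8a3, Slc24a1, Slc24a2, Slc24a4 and Slc24a5 read under both floors.

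**Figure D2:**
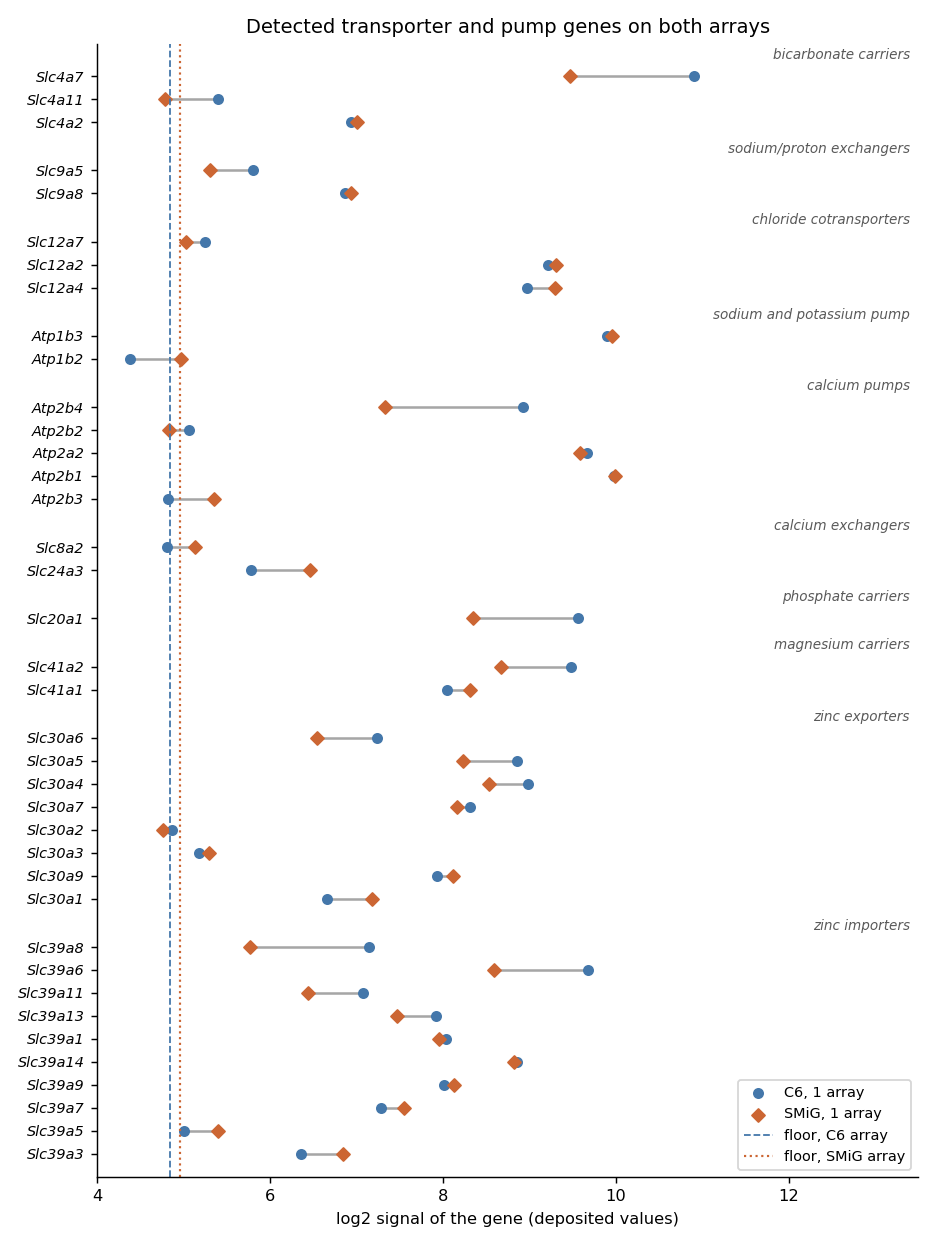
Each line joins the log2 signal of 1 detected carrier or pump gene on the C6 array (blue circle) and the SMiG array (orange diamond), grouped by class, with the floor of each array as a vertical line. Slc4a7 (10.91 and 9.47) and Atp2b4 (8.93 and 7.33) have the longest lines; signals of different probe sets are not to be set against each other.

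Of the 4 phosphate carriers, 1 was detected. Slc20a1, encoding a widely expressed sodium-dependent phosphate importer, read 9.56 in C6 and 8.35 in SMiG, a difference of −1.21 or 2.32-fold lower. Slc34a1, Slc34a2 and Slc34a3, the carriers of kidney, lung and gut, lay under both floors. Of the magnesium carriers, Slc41a2 read 9.48 and 8.68, a difference of −0.81 that came nearest to 2-fold among the members inside it, whereas Slc41a1, encoding a plasma membrane sodium/magnesium exchanger, read 8.05 and 8.31.

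Zinc carriers made up 18 of the 38 detected genes, with 11 negative (61.1%) and 7 positive differences and 2 past 2-fold downward (11.1%). Of all detected genes 50.3% were negative and 6.51% passed 2-fold downward. Among the importers, Slc39a8, encoding ZIP8, a carrier of zinc, manganese and cadmium, read 7.15 in C6 and 5.77 in SMiG, a difference of −1.37 or 2.59-fold lower. Slc39a6, encoding ZIP6, also called LIV-1, read 9.68 and 8.59, a difference of −1.09 or 2.13-fold lower. Slc39a11 read 7.07 and 6.44, and Slc39a13, whose product serves the secretory pathway of connective tissue cells, 7.92 and 7.47, so that both were lower by less than 2-fold.

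The other importers lay close to no difference or above it. Slc39a14, encoding ZIP14, which carries manganese and iron like ZIP8, read 8.85 and 8.82, and the general importer gene Slc39a1 8.04 and 7.96. Slc39a7, encoding the exit route for zinc from the endoplasmic reticulum, read 7.28 and 7.55, and Slc39a9 8.01 and 8.13. Slc39a3 read 6.35 and 6.84, a difference of 0.49, the highest of its family, and Slc39a5 5.00 and 5.40. Slc39a2, Slc39a4 and Slc39a12 lay under both floors, the last known from brain.

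The ZnT exporters contained no gene past 2-fold. Slc30a1, encoding ZnT1, the exporter at the plasma membrane, read 6.66 in C6 and 7.18 in SMiG, a difference of 0.52 and the highest of the family. Slc30a5 and Slc30a6, whose products pair to load zinc into the early secretory pathway, were lower by similar amounts, Slc30a5 at 8.85 and 8.23 and Slc30a6 at 7.23 and 6.55, differences of −0.62 and −0.69. Slc30a7, which serves the same compartment on its own, read 8.31 and 8.16. Slc30a4, found on endosomes, read 8.99 and 8.53, and Slc30a9, of mitochondria, 7.93 and 8.11. Slc30a3, of synaptic vesicles, read 5.18 and 5.30, and Slc30a2 read 4.87 and 4.77, near the floor, and the sign of its difference turned where values were raised to the floor. Slc30a8 and Slc30a10 read under both floors.

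**Figure D3:**
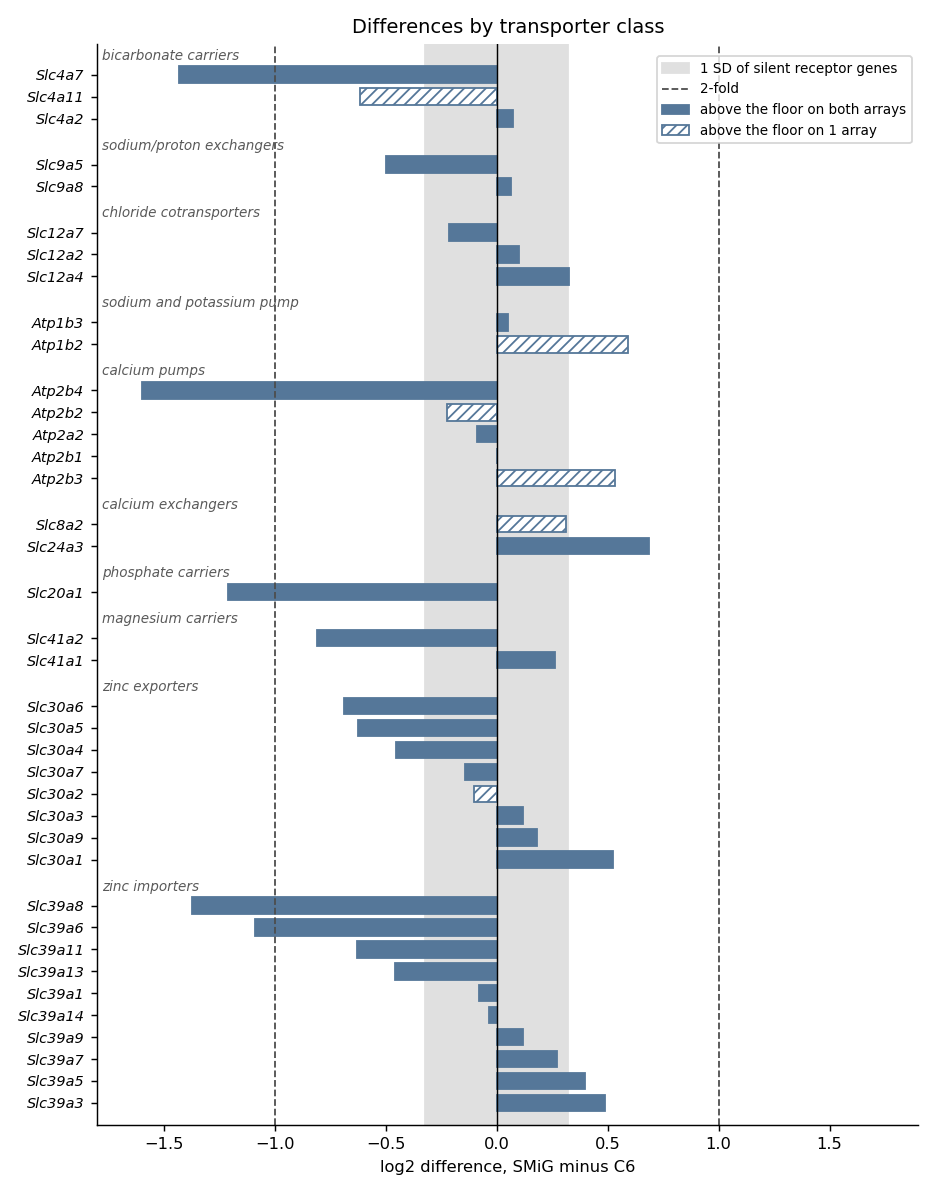
Bars give the log2 difference (SMiG minus C6) of the 38 detected carrier and pump genes by class; hatched bars were above the floor on 1 array only, the grey band is 1 SD of the silent receptor genes (0.32) and dashed lines mark 2-fold. The bars of Atp2b4, Slc4a7, Slc39a8, Slc20a1 and Slc39a6 pass the lower line and none passes the upper.

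Genes that regulate these carriers or share their ions were described from 9 lists. Of the magnesium and phosphate partners, 6 of 7 detected genes had positive differences, 2 of them past 2-fold upward, and the list's median was 0.71. Of all detected genes 48.9% were positive and 3.19% passed 2-fold upward. Cnnm4, of the CNNM family tied to magnesium efflux, read 6.54 in C6 and 7.70 in SMiG, 2.24-fold higher, and its relative Cnnm2 6.20 and 7.22, 2.03-fold higher. Cnnm3 read 6.24 and 6.95. Xpr1, encoding the phosphate exporter, read 8.33 and 9.05, a difference of 0.71, opposite in sign to that of the importer gene Slc20a1.

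Scaffold genes that hold sodium/proton exchangers at the membrane differed in opposite directions. Nherf2 read 6.67 in C6 and 5.24 in SMiG, 2.71-fold lower, and Nherf1 8.17 and 9.17, 1.99-fold higher, while Ezr, encoding their linker to actin, read 8.63 and 8.11. Among the 6 detected genes of that list 1 passed 2-fold downward (6.51% of all detected genes did) and 0 upward, although Nherf1, at a difference of 0.99, passed 2-fold under quantile normalization and, at 1.01, with the trend against signal removed, which makes the upward count 1. Of the FXYD regulators of the sodium and potassium pump, Fxyd5 read 5.54 and 4.33 and, being below the floor in SMiG, was at least 1.49-fold lower. With values raised to the floor its difference was −0.58, inside 2-fold. Fxyd3 read 5.42 and 4.81, at least 1.38-fold lower, and Fxyd2 5.42 and 5.86.

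Of 14 detected genes of calcium stores, 6 (42.9%) had a positive difference and 1 passed 2-fold upward (7.14%, against 3.19% of all detected genes), and the median was −0.11. Orai1, encoding a channel pore, read 7.36 in C6 and 8.38 in SMiG, 2.02-fold higher. Stim1, encoding a calcium sensor of the store, read 7.61 and 8.55, a difference of 0.94. Of their relatives, Orai2 read 6.84 and 6.30, Orai3 5.21 and 5.30, and Stim2 9.45 and 9.28. The store release channel gene Itpr1 read 8.26 and 8.89.

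The remaining lists held no gene past 2-fold. Of 9 detected genes of the WNK pathway, which phosphorylates the SLC12 carriers, the kinase gene Stk39 read 6.43 and 5.74 and Cab39, encoding its activator, 9.43 and 8.79. Of 9 other acid and anion carriers, 6 had positive differences, with a median of 0.20. Slc16a1, encoding the lactate and proton carrier MCT1, read 9.48 and 8.64, a difference of −0.84, and Slc26a8 6.23 and 5.55, while Bsg, encoding the chaperone of MCT1 and chosen after its value was seen, had a difference of 0.63. The metallothionein Mt2A read 11.00 and 10.48 and Mt4 5.45 and 5.74, and the zinc sensor gene Mtf1 8.63 and 8.62; metallothionein genes are near-identical, so single members are uncertain, and the difference of Mt2A, −0.52, was −0.12 on its brightest probe set. Among 8 copper, iron and manganese carriers, the copper pump gene Atp7a read 6.91 and 7.79 and the mitochondrial iron importer gene Slc25a37 6.59 and 5.79. Of 4 detected genes for parts of other P-type pumps, Atp13a2, encoding a lysosomal polyamine pump, read 7.10 and 7.99. Atp4b read 4.53 and 5.04 and, being below the floor in C6, was at least 1.15-fold higher.

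**Figure D4:**
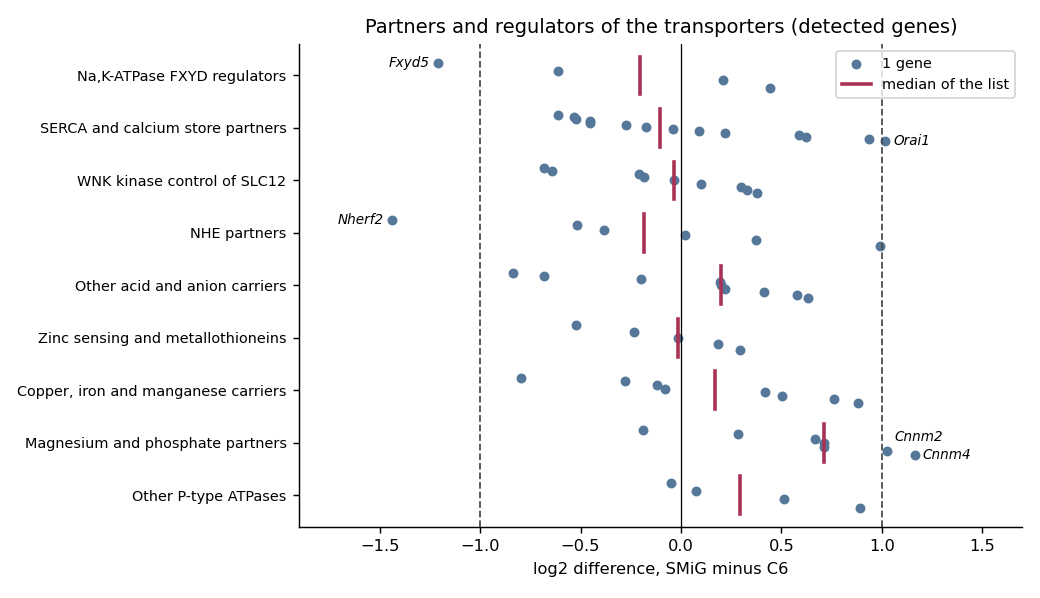
Each dot is the log2 difference (SMiG minus C6) of 1 detected partner or regulator gene, by list, with the list's median as a red line and 2-fold as dashed lines; genes past 2-fold are named. The magnesium and phosphate partners have the highest median, 0.71, with Cnnm4 and Cnnm2 past 2-fold.

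The promoter windows of the carriers also differed in base composition between detected and undetected genes. A RefSeq window was found for 58 of the 71 genes, and the first listed was used. The 31 detected genes had a median G and C content of 69.3%, and the 27 not detected 58.7%. Genes of the whole array showed a gap in the same direction, 61.0% over 8953 detected and 49.7% over 5552 not detected. The metal element core stood in 17 of the 31 detected carriers (54.8%) and in 36.6% of all detected genes, and since its letters are rich in G and C, that share also moves with base composition; the part of composition in it was not tested. ACGTG stood in 32.3% of the detected carriers against 26.1% of all detected genes, TGACG in 25.8% against 31.7%, and the ATF4 core in 0 of the 31 against 1.97%.

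**Figure D5:**
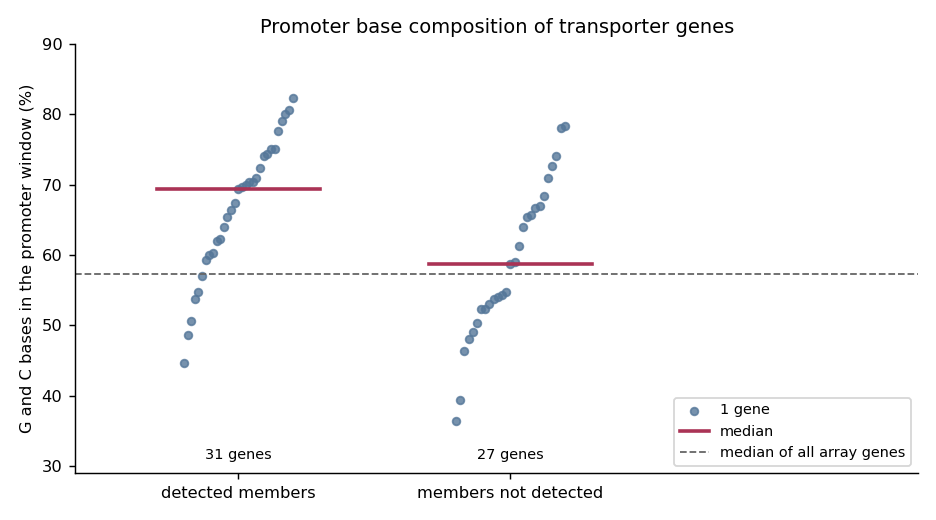
Each dot is the percent of G and C bases in the promoter window of 1 carrier or pump gene, split by detection on the arrays, with medians as red lines (69.3% for 31 detected genes, 58.7% for 27 not detected) and the median of all array genes as a dashed line (57.3%). The detected genes lie higher at the median, with wide overlap.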

How the data were processed

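Total RNA of 2 cultures was hybridised to Affymetrix whole-transcript arrays, per the labels' protocols. The authors deposited values for 36685 probe sets, taken here as log2 values; the base was read from the highest value, 13.09, which is above 11.09, the natural log of a 16-bit scanner's maximum. How the authors corrected background and normalized was not given in the sources used here, and could change any fold. The sorted columns differed by a median of 0.036, so no further normalization was applied.

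Genes were named from the platform annotation, only for the 18511 probe sets with 1 symbol. Symbols were matched by the whole name; Slc4a1ap, which begins like a member but encodes no carrier, was left out. All 71 members matched RefSeq (GRCr8) by gene number, with 0 symbols changed. Probe sets of 1 gene were averaged. Among 178 detected genes with 2 probe sets, the pair gave differences 0.23 apart at the median. The SD of that gap, taken with its sign, was 0.51. A fold whose dimmer value did not exceed its floor is taken against the floor and given as at least. The calculation was run on simulated data in which chosen members were shifted past 2-fold without noise. Their recovery was thus built in, and the run checks the code only. Named with levels were members past 2-fold, the extremes of each family and 15 fixed genes, 13 of which had a probe set; all other detected members are given too. In partner lists, genes past 2-fold and up to 2 others were named. Mtf1, Bsg, Orai2, Orai3 and Stim2 were named after their values were seen. The members and lists were chosen with earlier results of these data known. Promoters came from RefSeq tables. Python 3.11.15, numpy 2.4.6, pandas 2.3.3, statsmodels 0.14.6 and matplotlib 3.10.9 were used.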

Additional observations from a re-analysis of the deposited data

How the results depend on the processing

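Settings varied were a stricter floor (99th percentile), no floor, values raised to the floor, centring on the median, quantile normalization, removal of a lowess trend (span 0.3), the brightest probe set, each probe set alone, symbols with a suffix, and thresholds of 1.5-fold and 3-fold. Under the scaling, floor and probe set settings 5 members were at least 2-fold lower and 0 higher each time. Each member has 1 probe set, so the probe set settings could not change a member's difference. The 5 lay above the floor on both arrays, so raising values to the floor could not change theirs either. At 1.5-fold 10 were lower and 2 higher; at 3-fold 1 was lower, Atp2b4. The number of detected members depended on the floor: 28 at the stricter floor, 36 on the brightest probe set, and all 71 with no floor. Of all detected genes 7.47% were at least 2-fold lower at the stricter floor and 3.98% with no floor. Raising values to the floor moved Atp1b2 to 0.13, the partner Fxyd5 to −0.58 and Atp4b to 0.20. The brightest probe set moved Mt2A to −0.12. Nherf1 crossed 2-fold under quantile normalization and trend removal (1.01). Among detected members 1 changed sign, Slc30a2, and among partners Chp1, Mtf1 and Wnk1, the partner settings having been chosen after seeing the data. No paired analysis was possible because each group has 1 array. Signal near the floor limits what the arrays show for the 33 undetected members.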
